A study of Mus musculus with 6 samples.

Results

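The imprinted Igf2 and H19 locus on distal mouse chromosome 7 was described here through its chromatin contacts. Its members were the bin pairs of a Hi-C interaction list that had at least 1 of their 5 kb bins between positions 149650000 and 149950000 of chromosome 7 in build mm9, a stretch of 300 kb. The rule found 960 pairs of 3,654,010 in the nuclear genome and of 191,741 on chromosome 7. Of the 960 pairs, 410 lay wholly inside the stretch and 550 joined it to a bin outside. H19 was placed near 149.762 Mb, in the bin 149760001-149765000 (called the H19 bin), and Igf2 near 149.84 to 149.85 Mb, in the 4 bins from 149835001 to 149855000 (called the Igf2 bins). Of those 4, 3 had any listed pair, and they lay 75, 85 and 90 kb from the H19 bin.

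In Hi-C, crosslinked DNA is cut and religated, and sequenced junctions report which places of the genome were near each other. The cells were P19, a mouse embryonal carcinoma line that turns towards neurons when given all-trans retinoic acid (ATRA). The 6 libraries formed 3 groups of 2 replicates, namely undifferentiated, untreated P19 cells (T0) and P19 cells given 1e-06 M ATRA for 6 h (T6) or 48 h (T48). All were grown as monolayers on gelatine-coated plates in medium with fetal calf serum and delipidated calf serum, and the aim named for the series was chromatin structure in early neurogenesis. Untreated cells at 6 or 48 h were not analysed here, so ATRA and time in culture cannot be told apart. Nothing in the labels says that replicates came from separate cultures, so each p-value measures the spread between these libraries, which may be technical. The read pairs were not split by parent of origin, so every value sums the maternal and the paternal copy. Whether P19 cells keep the imprint was not measured here.

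Igf2 encodes a growth factor of the embryo and placenta that is made from the paternal copy, and H19 a long noncoding RNA made from the maternal copy. Between them, just upstream of H19, lies an imprinting control region that binds the insulator protein CTCF when it is unmethylated, on the maternal copy. Both genes use enhancers on the far side of H19, and the insulator keeps the maternal Igf2 promoters from them. A contact between Igf2 and the far side of H19 is therefore the kind of contact this locus is known for.

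By gene order in RefSeq (GRCm38.p6, used for names and order only), the lower-coordinate side of H19 holds Nctc1, a noncoding RNA gene, then Mrpl23, a mitochondrial ribosomal protein, Tnnt3, troponin T of fast muscle, and Lsp1, a leukocyte protein. The higher-coordinate side runs through Igf2 and its antisense gene Igf2os to Ins2, an insulin gene, then Th, the enzyme tyrosine hydroxylase, and Ascl2, a transcription factor. Hi-C does not measure expression, so the cell type was not checked against marker genes. The RefSeq promoter table held 5 of these 10 genes and 4 promoters of Igf2. The letters GGNGGCAG, a part of the CTCF consensus searched on both strands, were in 4139 of 32,851 promoters of 300 bases (12.6%) and in 1 of the 4 Igf2 promoters. That promoter is shown because it is a start of the gene whose contacts are described here. It lies on the minus strand, reads 5′ to 3′, has 64.7% GC and 24 CpG sites, and the match is in capitals.
Igf2 promoter, chr7:142658755-142659054 (GRCm38.p6): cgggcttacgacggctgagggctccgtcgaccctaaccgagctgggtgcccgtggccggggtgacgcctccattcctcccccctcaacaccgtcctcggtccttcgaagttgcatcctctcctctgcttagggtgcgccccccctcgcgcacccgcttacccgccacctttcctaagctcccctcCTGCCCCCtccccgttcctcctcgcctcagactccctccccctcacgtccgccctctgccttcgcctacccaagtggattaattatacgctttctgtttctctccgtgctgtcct
A match of these letters is a description of the sequence and not a binding site.

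Listed counts summed to between 40,561,360 and 50,154,643 in the replicate 1 libraries and between 23,003,295 and 29,644,373 in the replicate 2 libraries. These sums cover listed pairs and are not the sequencing depth. A pair has a count in both replicates of a time point or in neither, so a count of 0 means that the pair was not listed then and never that contact was absent. Numbers of listed pairs and partners therefore have no replicate error. The read pairs carry no molecular identifiers, and whether counts were corrected for bin coverage is not given in the sources used here.

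In all, the locus had 620 listed pairs at T0, 514 at T6 and 531 at T48. T6 thus held 82.9% of the T0 number and T48 85.6%, against 84.3% and 94.6% over chromosome 7. The summed counts of the locus were 12619 and 7818 (T0), 9691 and 5835 (T6) and 10412 and 7364 (T48), with replicate 1 first and replicate 2 second in each pair of counts here and in all that follow, and the time points in the order T0, T6 and T48. In each replicate number the T0 library was the highest and the T6 library the lowest, which was also the order of the whole libraries. The median distance of a listed pair was 140, 142.5 and 135 kb at T0, T6 and T48, against 65, 65 and 75 kb on chromosome 7.

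Of the pairs, 225 were listed at all 3 time points, 194 at T0 alone, 138 at T6 alone and 148 at T48 alone. T0 and T6 shared 322 pairs, which was 51.9% of the T0 list and 62.6% of the T6 list. T0 and T48 shared 329 pairs, 53.1% of the T0 list and 62.0% of the T48 list. T6 and T48 shared 279, 54.3% and 52.5% of their lists. Among pairs with both bins inside the stretch, 65.2% of the T0 pairs were listed again at T6, against 42.0% on chromosome 7, whose pairs are spread over other distances and counts. Pairs of at least 500 kb numbered 7, 11 and 8 at T0, T6 and T48, and 0 of them were listed at all 3 time points.

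The contacts of Igf2 ran almost wholly towards H19. At T0 the Igf2 bins had 72 partners at lower coordinates, the H19 side, and 0 at higher coordinates, the Ins2 side, outside the Igf2 bins themselves. At T6 the numbers were 65 and 0, and at T48 they were 73 and 2. One pair between 2 Igf2 bins was listed at each time point. The stricter list is the part of this list whose count in both replicates reached 1.5 times the lowest one listed at their distance. It held 32, 23 and 32 lower partners and 0 higher ones at T0, T6 and T48. Being a part of the full list, it could hold no higher partner at T0 and T6.

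**Figure D1:**
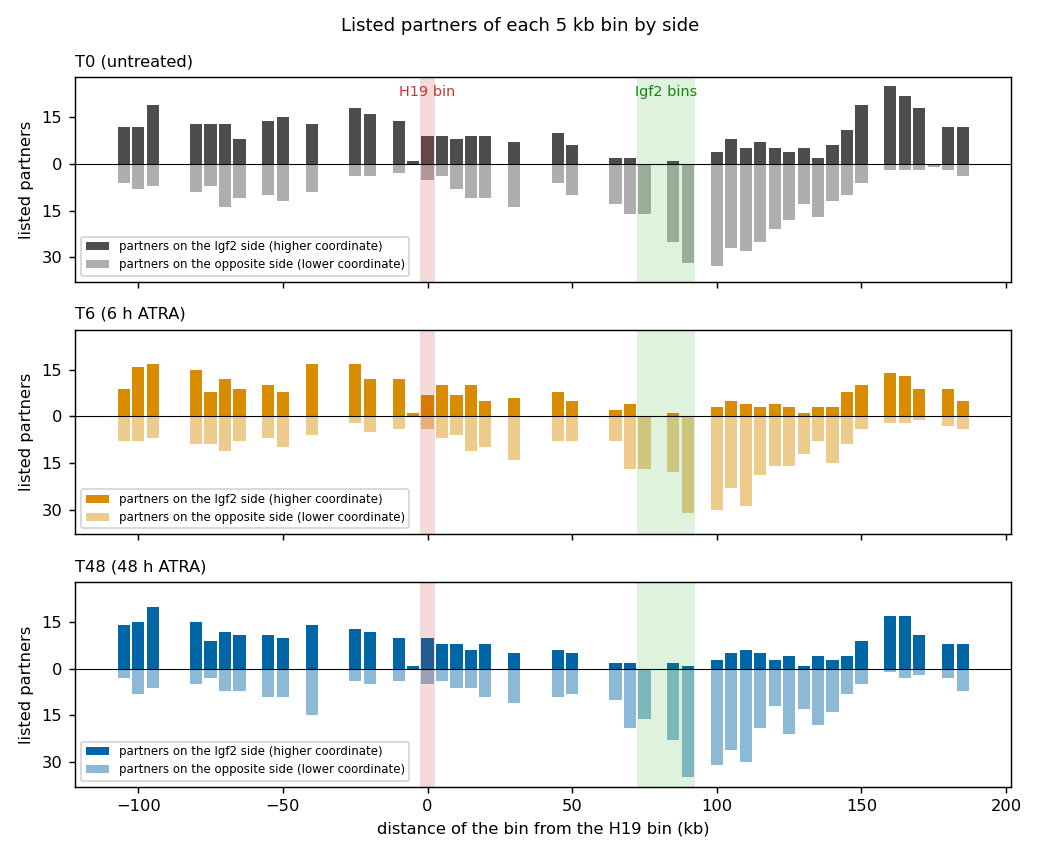
Number of listed partners of each 5 kb bin of the locus (vertical axis, partners at higher coordinates upwards and at lower coordinates downwards) against the distance of the bin from the H19 bin in kb, one panel per time point. The bin 90 kb from H19 had 32, 31 and 35 partners on the H19 side, and 0, 0 and 1 on the other.

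The last Igf2 bin, 149850001-149855000, had the most partners of the 3. It had 32 lower and 0 higher partners (T0), 31 and 0 (T6) and 35 and 1 (T48). A bin of chromosome 7 with any listed pair had a median of 10, 9 and 10 pairs, and a 95th percentile of 21, 19 and 20. The bin at 85 kb had 25, 18 and 23 lower partners and 1, 1 and 2 higher ones, among them the last Igf2 bin. The bin at 75 kb had 16, 17 and 16 lower partners and 0 higher ones. Among bins of chromosome 7 with at least 10 listed pairs, 2.36%, 3.75% and 2.35% had every partner on 1 side at T0, T6 and T48. Such one-sided bins were thus a small minority of the chromosome. By that definition the bin at 75 kb was among them at each time point and the last Igf2 bin at T0 and T6. The bin at 85 kb was not among them at any time point.

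The empty side of Igf2 was not a stretch without listed contacts. The 8 filled bins just past Igf2, 100 to 135 kb from the H19 bin, formed 24, 21 and 21 of the 28 possible pairs among themselves at T0, T6 and T48. With the 3 filled Igf2 bins, 10 to 60 kb away, they formed 0, 0 and 1 of 24 possible pairs. Over chromosome 7, 23.2%, 18.9% and 19.6% of possible pairs at those same distances were listed. The 1 listed pair joined the last Igf2 bin to 149860001-149865000 at T48, with counts of 35 and 29.

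Those bins past Igf2 also leaned towards H19, with 158 lower and 16 higher partners (T0), 132 and 5 (T6) and 149 and 10 (T48). In the 6 filled bins of the last 30 kb of the stretch the lean was turned, with 4 lower and 80 higher partners (T0), 5 and 43 (T6) and 7 and 52 (T48). The lean thus turned between those bins at each time point.

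H19 was less one-sided, and it leaned the other way. The H19 bin had 14 partners at T0, 5 lower and 9 higher. It had 4 and 7 at T6, and 5 and 10 at T48. Its farthest listed partners at T0 were 240 kb away on the lower side (149520001-149525000, counts 7 and 4) and 90 kb on the higher side, which was the last Igf2 bin. At T6 they were 25 and 110 kb away, and at T48 50 and 100 kb. The share of its counts on the lower side, for partners at least 20 kb away, was 26.1% and 28.7% in the T0 libraries, 39.8% and 35.3% at T6, and 35.7% and 39.6% at T48. Both T0 libraries were below all 4 treated ones, with means of 27.4% ± 1.81, 37.6% ± 3.21 and 37.6% ± 2.73 (SD, n = 2). The shares rest on which partners were listed at each time point, a choice that both replicates share, and no test was made of them.

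The pairs between Igf2 and the H19 side were taken apart. The H19 side was set as the 6 bins within 15 kb of H19, of which 5 had any listed pair, so 15 pairs between filled bins were possible, at 65 to 100 kb. The list held 6 of them at T0 and T6 and 7 at T48, which is 40.0%, 40.0% and 46.7%. On chromosome 7, 8.32%, 6.80% and 6.98% of possible pairs between 65 and 105 kb apart were listed at T0, T6 and T48. Taken at the distance of each of the 15 pairs, the rate of chromosome 7 would give 1.23, 1.02 and 1.04 listed pairs. In all, 10 pairs were listed at some time point, and 2 of them at all 3.

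The 2 pairs listed throughout were these. The bin 149770001-149775000, 10 kb from the H19 bin towards Igf2, met 149845001-149850000 with counts of 15 and 10 (T0), 17 and 6 (T6) and 13 and 16 (T48). The bin 149750001-149755000, 10 kb on the far side, met the last Igf2 bin with counts of 10 and 7, 8 and 8, and 10 and 10. The counts of the 3 time points overlapped in the first pair. In the second, both T48 counts were above both T6 counts, and the T0 counts lay on both sides of those of T6. These counts are not scaled to the library. For the first pair, 75 kb apart, the median listed count on chromosome 7 was 12 and 8 (T0), 12 and 7 (T6) and 11 and 8 (T48). For the second, 100 kb apart, it was 10 and 6, 10 and 6, and 10 and 8. The second pair lay within 2 read pairs of its median in each library, and the first within 5 except for the 16 of T48 replicate 2.

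The H19 bin itself met the last Igf2 bin with counts of 13 and 6 at T0 and 11 and 7 at T48. It was not listed with it at T6. It met 149835001-149840000 at T48 alone, with 11 and 6. The Igf2 bin at 85 kb was not listed with the H19 bin at any time point.

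Of the other pairs on the H19 side, the bin 149765001-149770000 met 149845001-149850000 with counts of 11 and 6 at T0 and 16 and 17 at T48, and it was not listed there at T6. The same bin met the last Igf2 bin with 9 and 14 at T0 and 9 and 5 at T6, and 149835001-149840000 with 12 and 7 at T6 and 13 and 9 at T48. These were pairs listed at 2 of the time points.
The bin 149750001-149755000 met 149835001-149840000 with 14 and 6 at T0 and 13 and 5 at T6, also 2 time points. The bin 149770001-149775000 met 149835001-149840000 at T6 alone, with 11 and 6, and the last Igf2 bin at T48 alone, with 15 and 8. The lowest count listed at these distances ranged from 8 to 10 in replicate 1 and from 5 to 7 in replicate 2, so a pair listed at 1 time point and not at the next can differ by a few read pairs. The stricter list held 1, 0 and 1 of the pairs at T0, T6 and T48.

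**Figure D2:**
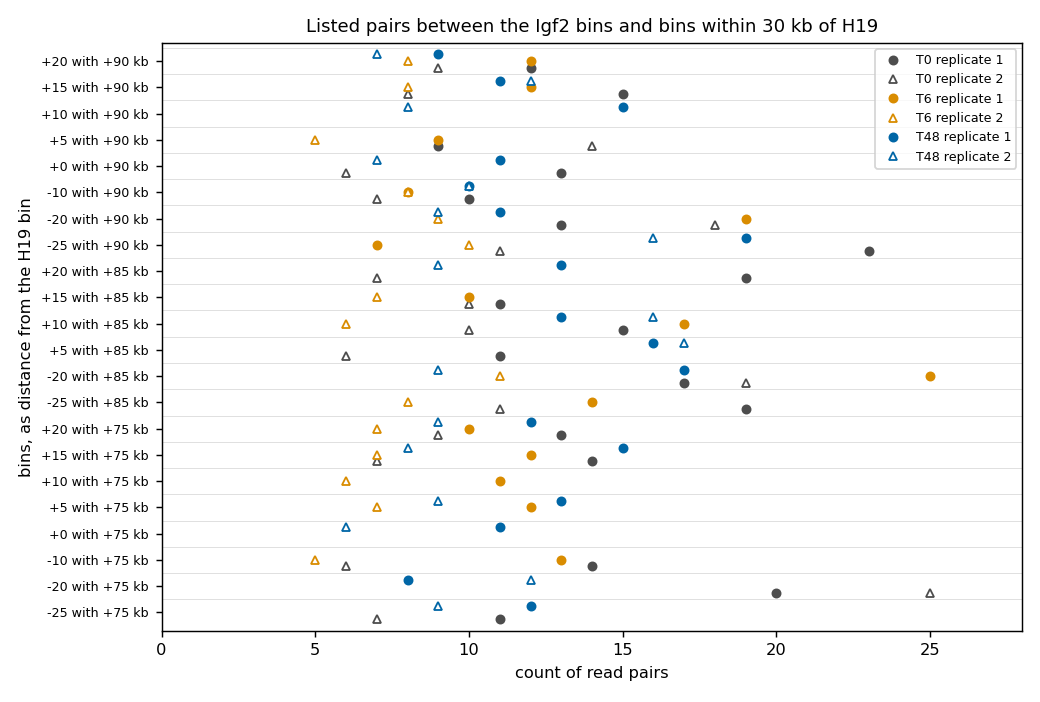
Counts of read pairs per library (horizontal axis) for the 22 listed pairs between the Igf2 bins and bins within 30 kb of H19, each line a pair named by its distances from the H19 bin in kb. A missing symbol means not listed at that time point. Counts lay between 5 and 25, and 9 of the 22 pairs had symbols at all 3 time points.

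Summed over the pairs listed at each time point, the Igf2 to H19 side count was 72 and 49 (T0), 70 and 37 (T6) and 89 and 73 (T48). Relative to the listed counts of its library, this was 1.44 and 1.65 (T0), 1.73 and 1.61 (T6) and 2.05 and 2.47 (T48) CPM (counts scaled to the library total). T0 and T6 overlapped, and both T48 libraries were above the other 4. The means were 1.54 ± 0.154, 1.67 ± 0.083 and 2.26 ± 0.300 in the same unit (SD, n = 2). The log2 ratio was 0.11 for T6 over T0, 0.55 for T48 over T0 and 0.44 for T48 over T6. These ratios are descriptions with no test, since a pair listed at 1 time point adds to both of its libraries by construction. T48 had 7 listed pairs (35 kb of bins) and the others 6 (30 kb), and the mean count per listed pair was 12.0 and 8.17 (T0), 11.7 and 6.17 (T6) and 12.7 and 10.4 (T48). The T48 over T0 ratio did not keep its sign when the H19 side was widened to 30 kb: it was then -0.10, and that of T6 over T0 was -0.27.

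The share of possible Igf2 pairs that were listed was highest between H19 and Igf2, and it was higher on the far side of H19 than around H19 itself. At 20 to 60 kb from the H19 bin towards Igf2, 12, 10 and 10 of 12 possible pairs with the filled Igf2 bins were listed at T0, T6 and T48 (100%, 83.3% and 83.3%), against 15.7%, 12.1% and 12.6% on chromosome 7 at those distances. Between 20 and 100 kb beyond the H19 bin, on the side away from Igf2, 22, 19 and 24 of 30 possible pairs with the filled Igf2 bins were listed at T0, T6 and T48 (73.3%, 63.3% and 80%). Chromosome 7 at the same distances had 5.07%, 4.53% and 4.42%. Within 20 kb of the H19 bin on either side 12, 11 and 12 of 21 were listed (57.1%, 52.4% and 57.1%), against 8.36%, 6.82% and 7.10%. The share around H19 was thus the lowest of the 3 stretches at each time point, while on chromosome 7 the share fell with distance. The stretch around H19 includes the bin 149755001-149760000, whose only listed partner at each time point was the H19 bin. Part of the lower share around H19 rests on that bin, whose possible pairs with Igf2 were not listed.

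The strongest of these contacts fell on 1 bin, 149720001-149725000, 40 kb beyond H19. Pairs inside the stretch of at least 20 kb were ranked by their counts relative to the median listed count at the same distance on chromosome 7, which gave 227, 188 and 197 ranked pairs at T0, T6 and T48. The pair of this bin with the last Igf2 bin, 130 kb apart, had counts of 34 and 16 (T0), 23 and 15 (T6) and 33 and 18 (T48). It was 3.40 and 2.67 times the chromosome's median at T0, 2.56 and 2.5 times at T6, and 3.67 and 3.0 times at T48, which gave it the ranks 3, 2 and 1 in that order. The replicate 2 counts of all 3 time points lay within 3 read pairs of each other, although the T6 library of that replicate was the smallest. The H19 bin, 40 kb nearer to Igf2, reached 13 and 6 with the same Igf2 bin at T0.

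The same bin met 149845001-149850000 with 26 and 22 (T0), 16 and 12 (T6) and 25 and 21 (T48). It met 149860001-149865000, just past Igf2, with 28 and 18, 17 and 10, and 24 and 20. In both pairs the 2 T6 counts were each below the T0 and T48 counts of the same replicate. These counts are not scaled, and the T6 library had the lowest listed sum of each replicate number.
The first-ranked pair at T6 joined 149710001-149715000, 50 kb beyond H19, to 149860001-149865000, with 28 and 9 (T0), 30 and 16 (T6) and 18 and 13 (T48). The remaining pairs among the first 5 joined bins 55 to 100 kb beyond H19 to bins 90 to 105 kb from it on the Igf2 side. Every pair among the first 5 at any of the 3 time points thus spanned H19 from the far side to Igf2 or to the bins just past it.

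**Figure D3:**
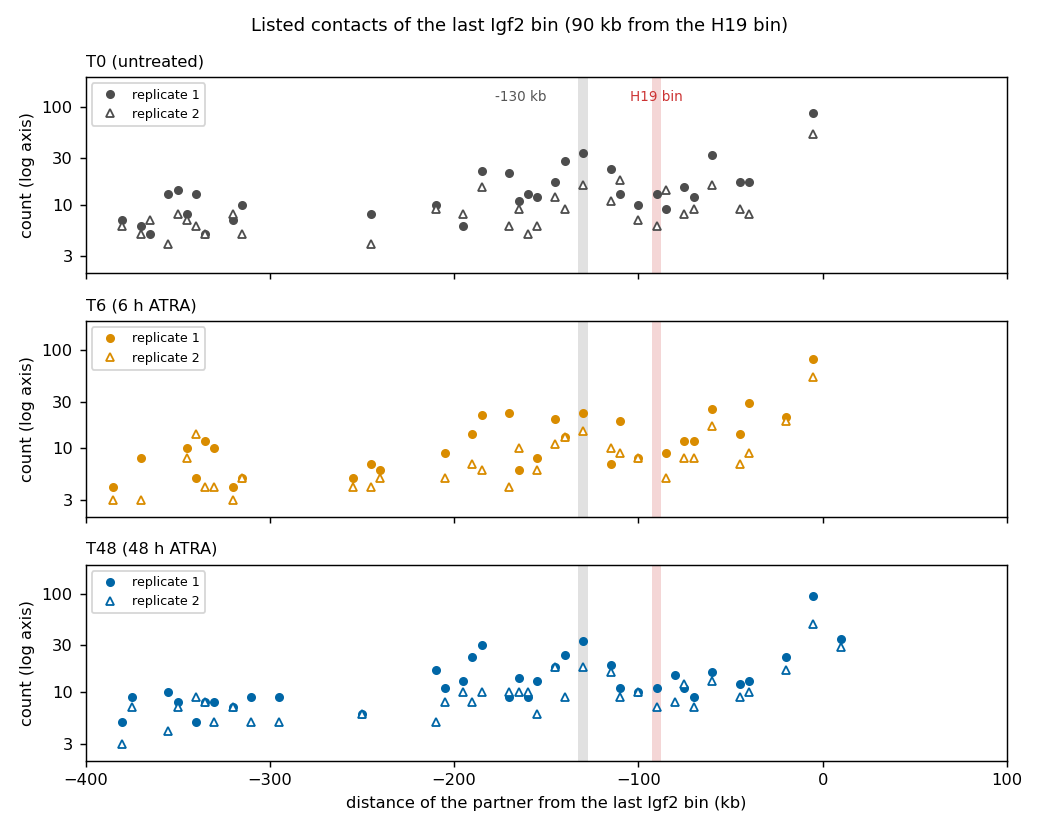
Counts per library on a log axis for every listed partner of the last Igf2 bin, against the distance of the partner from it in kb, one panel per time point. The H19 bin (red, 90 kb away) was listed with 13 and 6 at T0, not at T6, and with 11 and 7 at T48, while the grey bin 130 kb away had 34 and 16, 23 and 15, and 33 and 18.

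Igf2 also had more distant partners. The last Igf2 bin reached down to 149470001-149475000, 380 kb away, at T0 and T48, and to 149465001-149470000, 385 kb away, at T6. Of its partners, 10, 8 and 10 lay at least 200 kb beyond H19 at the 3 time points. Over all Igf2 bins, 15, 14 and 14 of 51 possible pairs with bins 200 to 300 kb beyond H19 were listed (29.4%, 27.5% and 27.5%), against 2.41%, 2.23% and 2.21% on chromosome 7 at those distances. Between 100 and 200 kb beyond H19 the number was 8, 7 and 10 of 36, a lower share than in the more distant stretch at T0 and T6 and about the same share at T48.

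This distant contact was large when bins were summed into 25 kb blocks. The block that starts with the last Igf2 bin (149850001-149875000, which also holds bins past Igf2) met the block 149500001-149525000, 350 kb away, with 245 and 140 read pairs (T0), 195 and 110 (T6) and 252 and 166 (T48), over 18, 16 and 18 listed bin pairs of the 25. A block pair 350 kb apart that held any listed pair had a median of 7 and 4, 6 and 4, and 6 and 5 read pairs in those libraries. A single listed bin pair 350 kb apart on chromosome 7 had a median of 5 and 4 at T0. The block median is thus about the count of 1 listed bin pair. Summed over the 6 libraries, 7 of 37,107 such block pairs of the whole genome had a higher count. The same Igf2 block met the H19 block 149750001-149775000, 100 kb away, with 71 and 57, 78 and 51, and 72 and 59, and 2117 of 54,460 block pairs at 100 kb were higher. The block 350 kb away thus had more listed counts in each library than the block of H19 at 100 kb, which had 7, 9 and 7 listed bin pairs. The lowest count listed at T0 was 8 and 5 at 100 kb, and 4 and 3 at 350 kb. Higher counts can thus go unlisted at 100 kb, so these sums do not rank the 2 contacts. The last Igf2 bin itself held 40 and 26 (T0), 37 and 30 (T6) and 29 and 29 (T48) of these read pairs, over 4 listed pairs each time. The bin 149860001-149865000, just past Igf2, held the most, 91 and 50, 79 and 37, and 108 and 62. Most of the distant contact was therefore carried by bins past the Igf2 bins. The distant block was picked out after its values had been seen, and no gene is named for it, since no mm9 annotation was used here.

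**Figure D4:**
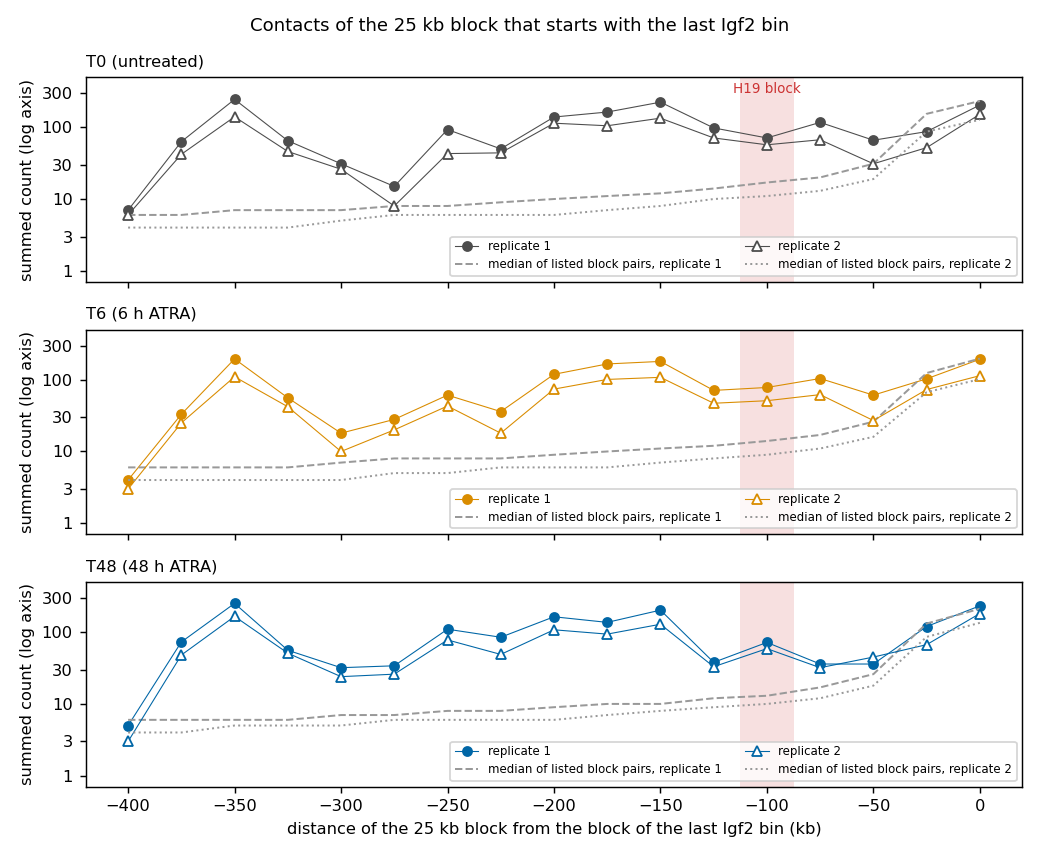
Summed count per library on a log axis for the 25 kb block that starts with the last Igf2 bin, against the distance in kb of the partner block on the H19 side, with the median of all listed block pairs of the genome at that distance in grey. The counts reach 245 and 140 (T0), 195 and 110 (T6) and 252 and 166 (T48) at 350 kb, and 7 and 6, 4 and 3, and 5 and 3 at 400 kb.

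No change of the distant block pair over time passed the test. Over the bin pairs listed at all 3 time points its counts were 189 and 97, 167 and 95, and 189 and 124, or 6.22 ± 0.473, 6.57 ± 0.235 and 7.41 ± 0.055 CPM of all block pairs (SD, n = 2). Both T48 libraries were above both T0 libraries. Its log2 ratio was 0.07 ± 0.120 (SE) for T6 over T0, 0.25 ± 0.118 for T48 over T0 and 0.18 ± 0.119 for T48 over T6, with adjusted p = 1.00, 0.797 and 0.919 by edgeR's quasi-likelihood test.

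Counting the contacts that pass over each point of the locus gave another view of this lean. For contacts of 20 to 200 kb, the edge 17.5 kb from the H19 bin on the Igf2 side was spanned by 2294 and 2520 CPM (T0), 2287 and 2486 (T6) and 2426 and 2527 (T48), relative to all such counts of chromosome 7. The median edge of the chromosome had 294.8 and 305.1, 298.7 and 314.3, and 305.0 and 311.4. The H19 and Igf2 genes thus lay under far more contacts than most of the chromosome. The number then fell past Igf2, to 162 and 174 (T0), 31.0 and 41.9 (T6) and 73.5 and 54.2 (T48) at the edge 142.5 kb from the H19 bin. All 6 libraries were below the chromosome's median there.

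**Figure D5:**
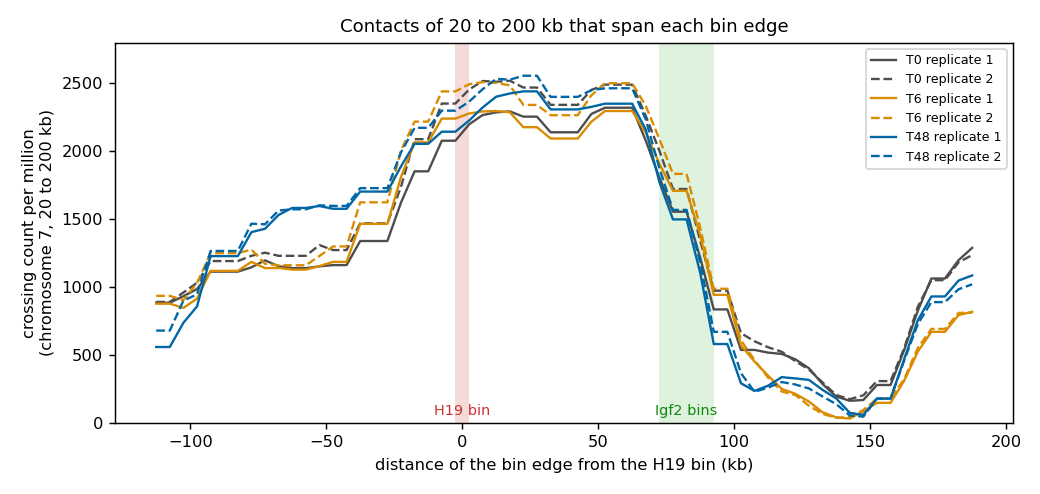
Listed contacts of 20 to 200 kb that span each bin edge, as CPM of those on chromosome 7, against the distance of the edge from the H19 bin in kb, one line per library. All 6 libraries are at or above 2287 at the edge 17.5 kb past the H19 bin and fall to between 31.0 and 174 at 142.5 kb.

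These sums also differed between time points. At the edge just past the last Igf2 bin, 92.5 kb from the H19 bin, the sums were 835 and 973 (T0), 942 and 987 (T6) and 580 and 670 (T48), over 61, 53 and 33 listed pairs. Both T48 libraries were the lowest. At the edge 52.5 kb on the far side of H19 the sums were 1152 and 1309, 1155 and 1228, and 1597 and 1602, over 78, 66 and 78 pairs, and both T48 libraries were the highest. The bins past Igf2 and 10 filled bins around H19, from 25 kb on its far side to 30 kb towards Igf2, shared 22 listed pairs of 80 possible at T0, 20 at T6 and 7 at T48 (27.5%, 25% and 8.75%), against 6.52%, 5.43% and 5.66% on chromosome 7. Igf2 itself and those 10 bins shared 21, 18 and 19 of 30. These stretches were chosen after the partner counts had been seen, the lists have no replicate error, and no test was made of them.

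The counts of pairs that were listed at every time point were then compared between time points with edgeR's quasi-likelihood test, adjusted by Benjamini-Hochberg over the whole table at 0.05. The 3 comparisons share libraries and are not independent. Of the 225 such pairs of the locus, 182 had counts high enough to be tested, of 496,203 in the genome. For T6 over T0, 0 of the 182 pairs were called by edgeR, against a background of 0.0% of all pairs, and 5 had an unadjusted p under 0.05 (2.75%, background 3.17%). For T48 over T0, 0 were called (background 0.0%) and 9 had an unadjusted p under 0.05 (4.95%, background 5.52%). For T48 over T6, 0 were called (background 0.0%) and 11 had an unadjusted p under 0.05 (6.04%, background 5.06%). DESeq2 called 0 pairs of the locus in each, against 1, 71 and 63 of all pairs tested. It gave no adjusted p to some pairs of the locus, which it thus could not call. The median log2 ratio over the 182 pairs was -0.06, 0.01 and 0.09. By the unadjusted shares, these 182 pairs were close to the background in each comparison. With 0 calls in the whole genome, 0 calls in the locus do not describe the locus. Pairs that entered or left the list between time points are outside this test.

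Of the pairs with the lowest p, 2 had an Igf2 bin. The pair of 149680001-149685000, 80 kb beyond H19, with 149845001-149850000 had counts of 11 and 5 (T0), 7 and 6 (T6) and 21 and 10 (T48). Both T48 counts were above the others of their replicate, and its log2 ratio for T48 over T0 was 1.05 ± 0.329 (SE, edgeR adjusted p = 0.849). The pair of 149665001-149670000 with the same Igf2 bin had 13 and 5, 6 and 4, and 15 and 17, and its log2 ratio for T48 over T6 was 1.59 ± 0.416 (edgeR adjusted p = 0.879). Neither passed the threshold.
The lowest p for T48 over T0 and for T48 over T6 was that of 149610001-149615000 with 149875001-149880000, 265 kb apart, with 9 and 5, 6 and 4, and 15 and 14. Its log2 ratios were 1.15 ± 0.319 and 1.45 ± 0.348 (edgeR adjusted p = 0.838 and 0.826). The lowest p for T6 over T0 was that of 149770001-149775000 with 149790001-149795000, a pair of 20 kb between H19 and Igf2, with 45 and 26 (T0), 21 and 15 (T6) and 29 and 16 (T48). Each T6 count was below the T0 count of its replicate, and the log2 ratio was -0.79 ± 0.217 (edgeR adjusted p = 1.00). The next 2 for that comparison had log2 ratios of -0.90 and -0.85 with the same adjusted p.

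One pair next to H19 set its replicates apart. The bin 149755001-149760000 had a single listed partner, the H19 bin beside it, with counts of 51 and 33 (T0), 42 and 31 (T6) and 197 and 40 (T48). T48 replicate 1 stood far above the other 5 libraries. The ratio of the 2 T48 counts was 4.93, against 1.47 for their library sums of listed counts, and 313 of 31,072 pairs with at least 100 counts (1.01%) were as far from that ratio. The log2 ratio for T48 over T0 was 1.49 ± 0.485 (edgeR adjusted p = 0.855), made up of 2.15 in replicate 1 and 0.26 in replicate 2.

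Sums of the pairs listed at every time point over windows of 50 kb put all 6 windows of the locus to the test among 49,387. A pair counts once for each window it touches. The window of H19 (149750001-149800000) had 50.8 ± 4.74 CPM at T0, 46.9 ± 3.48 at T6 and 52.7 ± 2.92 at T48 (SD, n = 2). The window with the first Igf2 bins (149800001-149850000) had 34.0 ± 1.39, 33.5 ± 3.10 and 34.8 ± 1.73, and the window that starts with the last Igf2 bin (149850001-149900000) had 74.0 ± 2.67, 73.0 ± 5.01 and 75.7 ± 5.69. The spreads of the 3 time points overlapped in each of these windows.
The 2 windows on the far side of H19 had 45.8 ± 3.74, 42.4 ± 2.75 and 44.0 ± 1.15 (149650001-149700000) and 36.6 ± 5.35, 35.0 ± 3.34 and 38.3 ± 4.24 (149700001-149750000). The last window, 149900001-149950000, had 38.7 ± 1.29, 37.0 ± 1.76 and 36.1 ± 2.21. The means ± SD of the time points overlapped in these windows too.

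By edgeR, 0 of the 6 windows were called in T6 over T0 (background 0.0%), 0 in T48 over T0 (background 0.0263%) and 0 in T48 over T6 (background 0.0182%), with Benjamini-Hochberg adjustment. DESeq2 called 0 of the 6 in each, against 14, 112 and 83 of all windows. An unadjusted edgeR p under 0.05 was found for 0 of the 6 in each comparison, against 1.73%, 8.59% and 6.72% of all windows. The log2 ratio of the H19 window was -0.11 for T6 over T0, 0.05 for T48 over T0 and 0.17 for T48 over T6. Without the pair next to H19 described above, the last 2 were -0.02 and 0.10.

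Sums over pairs of 25 kb blocks, again of pairs listed at every time point, keep apart which places touch. Of the 65 block pairs of the locus, 56 were tested, among 186,903 in all. In T6 over T0, edgeR called 0 of the 56 (background 0.0%), and 2 had an unadjusted p under 0.05 (3.57%, background 2.54%). In T48 over T0 it called 0 (background 0.000535%), with 3 at an unadjusted p under 0.05 (5.36%, background 6.43%). In T48 over T6 it called 0 (background 0.0%), with 1 (1.79%, background 5.81%). DESeq2 called 0 of the 56 in each, against 21 of all block pairs in T6 over T0 and 87 in T48 over T6. It called somewhat more in T48 over T0. With calls this rare by both methods, 0 calls among 56 block pairs do not describe the locus. DESeq2 gave no adjusted p to some block pairs of the locus, among them the H19 block with both Igf2 blocks. It thus could not call them.
The H19 block met the block of the first Igf2 bins (149825001-149850000) with counts of 26 and 20 (T0), 31 and 12 (T6) and 22 and 32 (T48), over pairs listed at all 3 time points. The time points overlapped, and the log2 ratio for T48 over T0 was 0.35 ± 0.397 (SE, edgeR adjusted p = 0.941). It met the block of the last Igf2 bin with 29 and 22, 23 and 18, and 28 and 32, which overlapped too, with a log2 ratio of 0.35 ± 0.327 (edgeR adjusted p = 0.917). For T6 over T0 the log2 ratios were 0.04 and -0.14.

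Likeness to other windows was taken as the Pearson correlation of log2 CPM with the H19 window over the 6 libraries, among 2581 windows of chromosome 7. The 3 most alike were 138950001-139000000 (r = 0.998), 136650001-136700000 (r = 0.995) and 141750001-141800000 (r = 0.991). All values of a library share its depth and its scaling, so r is given as a description.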

How the data were processed

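Hi-C was done on 6 P19 libraries. The authors deposited raw counts of read pairs per pair of 5 kb bins and library, in a list of replicated significant interactions, per the file headers and name. Reads had been handled with CASAVA 1.8.2 and Bowtie2 on build mm9, per the submitters' processing notes. The interaction caller is not given in the sources used here. Groups came from sample titles. The locus, its bins and the gene list were chosen with earlier results of these data known.

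For pairs listed at all 3 time points, the counts and their sums per 50 kb window and per pair of 25 kb blocks were tested with edgeR 4.0.16 in R 4.3.3 (TMM, filterByExpr, quasi-likelihood F test, 6 libraries in 1 fit, two-sided, Benjamini-Hochberg over the whole table at 0.05). DESeq2 1.42.0 was an alternative. The code was tested on simulated data. SE is the log2 ratio over the root of F. The exact permutation test planned for summed Igf2 to H19 counts is not reported, since both replicates share the list. Partner lists, listing shares and crossing counts were computed in Python 3.11.15 with pandas 2.3.3. Named were every Igf2 to H19 side pair, the 5 strongest pairs for their distance per time point, the 3 with the lowest p per comparison, the farthest partners, all 6 windows and the 3 windows most like that of H19. Alternatives were other normalization, no filter, a replicate block, leaving out each library, a stricter list, other widths and scalings. The caller's counts at pairs that were not listed were not used here.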

Additional observations from a re-analysis of the deposited data

How the results depend on the processing

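The number of pairs, windows and block pairs of the locus called was 0 in all 3 comparisons with DESeq2, DESeq2 size factors, no filter, each library left out (range 0 to 0) and the replicate block, and windows also with short pairs left out or counted once per bin. With the replicate block, 0 were called in each of the 9 tests. Calls over the whole tables were also few with DESeq2 and with the replicate block. For single pairs the replicate block called at most 1 in the whole genome. These 0 calls therefore do not describe the locus. Same-numbered libraries deviated together (r = 0.445, 0.387 and 0.383 over 385,708 pairs), but the labels give them no common origin. Omitting the pair next to H19, an alternative added after the data were seen, also left 0 calls. The Igf2 to H19 side count depended on the width of the H19 side: at 30 kb the log2 ratio was -0.27 for T6 over T0 and -0.10 for T48 over T0. Scaled to counts between 50 and 150 kb, T48 over T0 was 0.75. Leaving out 1 library at a time, with no test, gave 0.41 to 0.68 for T48 over T0, 0.01 to 0.22 for T6 over T0 and 0.30 to 0.57 for T48 over T6. The cause was not tested. The Igf2 to H19 side pairs listed were 18, 15 and 17 with the 30 kb side at T0, T6 and T48, 1, 0 and 2 with the H19 bin alone, and 1, 0 and 1 in the stricter list. The H19 bin had 7, 4 and 8 partners in the stricter list, and 26, 27 and 26 with its neighbours. The Igf2 bins had 33, 24 and 33 in the stricter list. Counts of about 5 to 25 per pair limit each single pair.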
